A study of Mus musculus with 2 samples.

Results

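The Mir30 family of microRNAs (miRNAs) was followed in small RNA of embryonic mouse midbrain (strain B6NCrl, age 15.5 days). Its members were the 6 genes named Mir30a, Mir30b, Mir30c-1, Mir30c-2, Mir30d and Mir30e, and all 6 had reads in both libraries. They were chosen by symbol among the 1973 genes of the deposited count tables. Of these, 1894 were annotated as miRNA genes and 79 were not matched to the annotation. The labels give 1 group of 2 biological replicates, each a pool of healthy embryos of both sexes. Replicate 1 held the midbrains of 78 embryos and replicate 2 those of 62. With no second tissue, age or treatment, no contrast between groups existed. Comparisons are therefore between genes within a library and between the pools, with no test across conditions.

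A miRNA is cut from a hairpin in a longer transcript, and either arm of the hairpin (5p or 3p) can be loaded into an Argonaute protein. Bases 2 to 8 of the mature miRNA, the seed, pair with target mRNAs and lead to their repression. Members of the Mir30 family carry the same 5p seed and are found in many tissues, among them brain, heart and kidney. Known targets of the family include Snai1, a transcription factor of epithelial to mesenchymal transition, Becn1, which acts in autophagy, and Bdnf, a neurotrophin.

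The mature sequences are shown because they decide which reads can be told apart. They are from RefSeq (GRCm38.p6), written 5′ to 3′ with the seed in capitals. Of the 6 members 4 were matched, and Mir30b and Mir30d are named only.
miR-30a-5p: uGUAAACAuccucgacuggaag
miR-30e-5p: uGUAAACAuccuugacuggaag
miR-30c-5p: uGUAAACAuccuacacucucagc
miR-384-5p: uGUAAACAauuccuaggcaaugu
miR-30a-3p: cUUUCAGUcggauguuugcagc
miR-30e-3p: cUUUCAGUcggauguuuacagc
miR-30c-1-3p: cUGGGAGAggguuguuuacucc
miR-30c-2-3p: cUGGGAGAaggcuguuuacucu
The 5p seed was the same in Mir30a, Mir30c-1, Mir30c-2, Mir30e and Mir384. These 5 genes held all 5 of the 1738 mature entries with that seed (0.288%). The 3p arms form other seed groups, 1 of Mir30a and Mir30e and 1 of both Mir30c genes. With positions counted from 1 at the 5′ end, miR-30a-5p and miR-30e-5p differ by C13U alone, and their 3p arms by G18A alone. The 5p arms of Mir30a and Mir30c share their first 12 bases, while that of Mir384 shares 8 with either.

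Mir30c-1 and Mir30c-2 give an identical miR-30c-5p. Their hairpins, shown with that arm in capitals, share a run of 28 bases around it, and their 3p arms differ by G9A, U12C and C22U.
Mir30c-1 hairpin: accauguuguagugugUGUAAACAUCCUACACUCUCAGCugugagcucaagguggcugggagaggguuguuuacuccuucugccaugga
Mir30c-2 hairpin: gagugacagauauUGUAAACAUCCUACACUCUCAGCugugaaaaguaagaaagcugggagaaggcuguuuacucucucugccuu
The libraries held RNA under 30 bases. Reads with several mapping places have a row of their own in the tables. That none of them also counted for a gene is read from this layout, and no source used here states it. They came to 2847913 reads in replicate 1 and 4694526 in replicate 2, or 0.830 and 0.816 times the sense reads of all counted genes. A read of miR-30c-5p alone matches both Mir30c genes. The longest run shared by the hairpins of Mir30a and Mir30e was 18 bases.

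Levels are given as CPM, sense counts scaled to a total of 1000000 in each library. The unscaled total was 3429704 sense reads in replicate 1 and 5752476 in replicate 2, so that 1 read was worth 0.292 and 0.174 CPM. As a check of the tissue, the neuronal miRNA gene Mir137 had 10800 and 11585 CPM. Of 9 listed brain genes 8 were found by symbol, and all 8 had reads. The copies of Mir124, a defining miRNA of neurons, were low, at 3.69 CPM or less on average, as was Mir9-2 at 1.66 CPM. Mir9-3 was higher, at 455 and 512 CPM, as were Mir128-1 at 1403 and 1491 CPM and Mir128-2 at 746 and 917 CPM. Of 6 listed muscle genes 5 were found by symbol. Mir1a-1, Mir133a-1 and Mir133a-2 had no reads, while Mir206 had 11.7 and 16.0 CPM and Mir208b 19.0 and 47.6 CPM. The part of reads with several mapping places in the low and zero counts of these copies was not tested. Genes listed for other cells had reads too, with 24909 and 21568 CPM for the endothelial Mir126a and 6322 and 5794 CPM for Mir143 of mural cells. Mir145a, also listed for mural cells, was far lower, at 70.0 and 74.6 CPM. Of 3 listed blood genes 2 were found by symbol, Mir451a at 137 and 153 CPM and Mir223 at 161 and 155 CPM. Mir122 of liver had 43.2 and 76.1 CPM. The 4 genes listed for kidney epithelium had a sum of 1299 and 1652 CPM, of which Mir204 alone had 1129 and 1497 CPM. Whether these reads came from such cells was not tested. In bulk tissue, fewer cells of a type and less RNA per cell cannot be told apart.

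Mir30 genes together took 133888 of the sense reads in replicate 1 and 252204 in replicate 2. That is 3.90% (95% exact Clopper-Pearson interval 3.88 to 3.92) and 4.38% (4.37 to 4.40), a mean of 4.14 ± 0.340% (SD, n = 2). When genes were summed by family number, the Mir30 family ranked 5 of 853 by mean CPM, with 41440 ± 3398 CPM, and was the fifth in replicate 1 and the fourth in replicate 2. Number 100 was its upper neighbour in that order, with 43170 ± 883 CPM, a gap smaller than the replicate spread. Share and rank are of reads counted for a gene. If reads with several mapping places counted for no gene, families whose copies share an arm may stand too low in this order. The size of that loss was not tested, so the rank is not one of true abundance. Intervals here and throughout cover counting error only, and take each read as an independent draw. That was not tested, and the intervals are too narrow if reads are not independent molecules.

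Within the family, 3 genes were abundant and 3 were low. Mir30e, Mir30a and Mir30d together made up 99.4% of the family's reads in replicate 1 and 99.5% in replicate 2. Mir30b, Mir30c-1 and Mir30c-2 made up 0.589% and 0.524%. Reads of miR-30c-5p alone, which match both Mir30c genes, may be missing from these shares. The shares rest on counts per gene: both arms of a hairpin are added together, and no read gives the arm. These counts were not divided by gene length, because such a read spans a mature miRNA and not the gene. The order of the 6 genes was the same in CPM per base of the annotated gene, falling to 0.525 in Mir30c-2 from 236 in Mir30e.

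Mir30e had the highest level, with 69417 reads (20240 CPM) in replicate 1 and 133220 reads (23159 CPM) in replicate 2, a mean of 21699 ± 2064 CPM (SD, n = 2). It held 51.8% and 52.8% of the family's reads and ranked 12 of all genes. Mir30a followed with 33117 reads (9656 CPM) and 64441 reads (11202 CPM), a mean of 10429 ± 1093 CPM and rank 19. Mir30e exceeded Mir30a by 2.10 times (95% counting interval 2.07 to 2.12) in replicate 1 and 2.07 times (2.05 to 2.09) in replicate 2. The ratio of these highest genes was thus nearly the same in both pools, although both genes stood higher in replicate 2.

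Mir30d had 30565 reads (8912 CPM) in replicate 1 and 53222 reads (9252 CPM) in replicate 2, a mean of 9082 ± 241 CPM and rank 21. Mir30a lay above it in both libraries, by 1.08 times in replicate 1 and 1.21 times in replicate 2. Their means were 1347 CPM apart, barely more than their summed SDs of 1334 CPM. Of the neighbours in the family's order, these had the closest means in relative terms.

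Mir30b had 448 reads (131 CPM) in replicate 1 and 680 reads (118 CPM) in replicate 2, a mean of 124 ± 8.78 CPM and rank 199. The step down to it from Mir30d was 73.0-fold between means, the widest in the family's order. Mir30c-1 had 182 reads (53.1 CPM) and 400 reads (69.5 CPM), a mean of 61.3 ± 11.6 CPM and rank 228. Mir30c-2 had 159 reads (46.4 CPM) and 241 reads (41.9 CPM), a mean of 44.1 ± 3.16 CPM and rank 246.

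The copies of Mir30c were the lowest members, and their order was weakly set. Mir30c-1 exceeded Mir30c-2 by 1.14 times in replicate 1, with a counting interval from 0.920 to 1.43 that includes equality, and by 1.66 times (1.41 to 1.96) in replicate 2. Their means were 17.2 CPM apart, against summed SDs of 14.8 CPM. Mir30c-1 had the largest relative spread of the family, with an SD of 19.0% of its mean, and Mir30d the smallest, at 2.65%. If reads with several mapping places counted for no gene, the levels of both Mir30c genes are lower limits of what those genes yielded. The part of the shared 28 bases in their low counts was not tested.

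**Figure D1:**
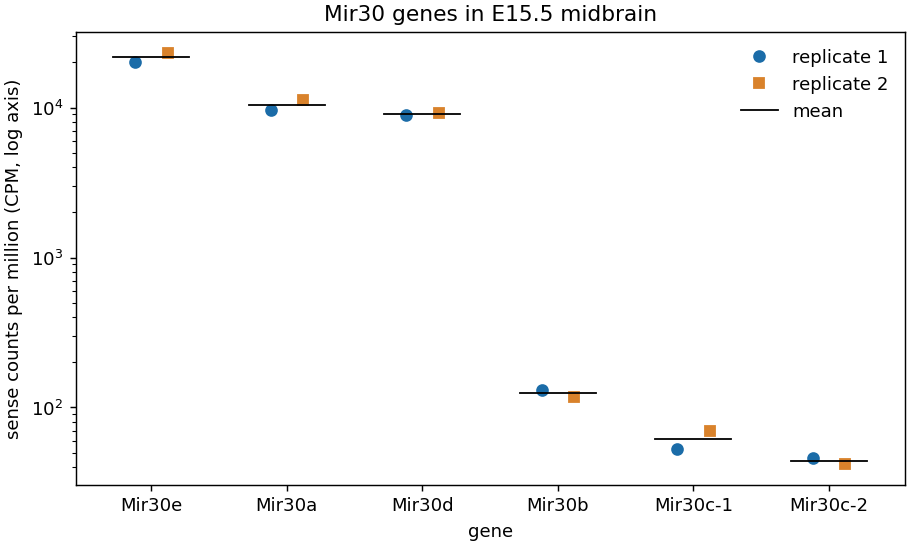
Sense CPM (log axis) of the 6 Mir30 genes in replicate 1 (circles) and replicate 2 (squares), with the mean as a line. Mir30e, Mir30a and Mir30d lie between 8912 and 23159 CPM, and Mir30b, Mir30c-1 and Mir30c-2 between 41.9 and 131 CPM.

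The 6 genes lie in 3 genomic pairs, each on 1 strand, and the compared loci differ in what surrounds them. All positions are on mm10, from GENCODE M21. On chromosome 4, Mir30e (120772606 to 120772697, minus strand) and Mir30c-1 (120769534 to 120769622) are 2983 bases apart. Both lie in the same intron of Nfyc, which encodes a subunit of the CCAAT-binding factor NF-Y, an intron of 4772 bases at 120768900 to 120773671. Nfyc is the only protein-coding host of the family.

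On chromosome 1, Mir30a (23272269 to 23272339, plus strand) and Mir30c-2 (23291701 to 23291784) are 19361 bases apart. Mir30a lies in no annotated host gene. Mir30c-2 lies entirely in the exon of Gm27028, a noncoding RNA gene of 399 bases. On chromosome 15, Mir30d (68341208 to 68341289, minus strand) and Mir30b (68337415 to 68337510) are 3697 bases apart. Mir30d lies entirely in an exon of the noncoding gene Gm20732, and its last 9 bases also overlap Gm37296. Mir30b overlaps the start of Gm26621 by 16 bases. The 1894 counted genes matched to the annotation were all miRNA genes, so the levels of the host transcripts were not analysed here.

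**Figure D2:**
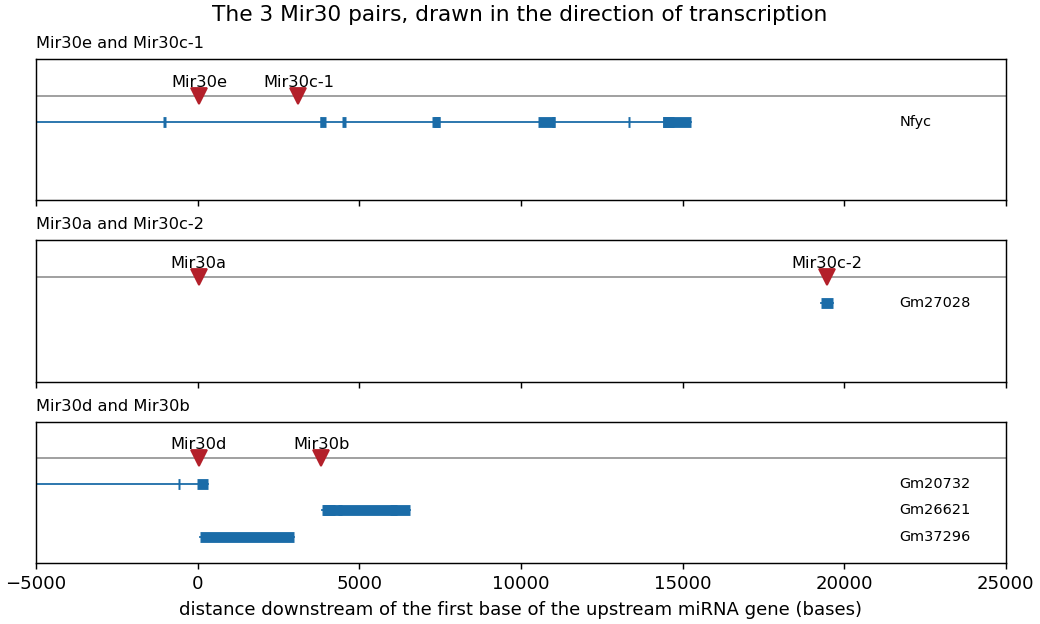
Map of the 3 pairs, with distance in bases from the first base of the upstream miRNA gene and transcription running to the right. Triangles mark miRNA genes, thin lines annotated genes on the same strand (cut at the edge of the map) and thick bars their exons, with all transcripts of a gene overlaid. Mir30e and Mir30c-1 share an intron of Nfyc, while Mir30a has no host.

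In every pair the upstream gene was abundant and the downstream gene low. Mir30e exceeded Mir30c-1 by 381 times (95% counting interval 330 to 444) in replicate 1 and 333 times (302 to 368) in replicate 2. Mir30a exceeded Mir30c-2 by 208 times (178 to 245) and 267 times (236 to 305). Mir30d exceeded Mir30b by 68.2 times (62.1 to 75.1) and 78.3 times (72.6 to 84.5). Depth cancels in these ratios. Reads of miR-30c-5p alone match both Mir30c genes, and are missing here if reads with several mapping places counted for no gene. The ratios over Mir30c-1 and Mir30c-2 may then be too high, by an amount that was not tested. The intervals of the libraries overlapped in each pair, and the ratios of the chromosome 15 pair lay below those of the other pairs in both libraries.

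By locus, the chromosome 4 pair supplied 52.0% of the family's reads in replicate 1 and 53.0% in replicate 2, the chromosome 1 pair 24.9% and 25.6%, and the chromosome 15 pair 23.2% and 21.4%. Of the counted reads, shares of the chromosome 4 pair thus stayed more than 2 times those of either other locus. Reads of miR-30c-5p alone can come from chromosome 4 or chromosome 1. They are in none of these shares if reads with several mapping places counted for no gene.

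Wide gaps within a pair also occurred in other families that lie in pairs. In the Mir181 family, Mir181a-1 exceeded Mir181b-1 by 364 times in replicate 1 and 353 times in replicate 2, close to the chromosome 4 pair of Mir30. Mir181c exceeded Mir181d by only 1.76 and 1.72 times, and Mir181a-2 lay below Mir181b-2 at 0.544 and 0.218 times. In the Mir29 family, Mir29a exceeded Mir29b-1 by 56.4 and 106 times and Mir29c exceeded Mir29b-2 by 73.0 and 53.3 times, on 6 to 12 reads of the Mir29b copies in each library. There the abundant gene was the downstream one. The upstream gene was the higher in 3 of 3 Mir30 pairs, 2 of 3 Mir181 pairs and 0 of 2 Mir29 pairs. This describes few loci, with no test. Mir30c-1, Mir30c-2, Mir29b-1 and Mir29b-2, each the lower gene of its pair, share a mature arm with another gene, while their partners share none. In those pairs position and a possible loss of shared reads cannot be told apart.

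**Figure D3:**
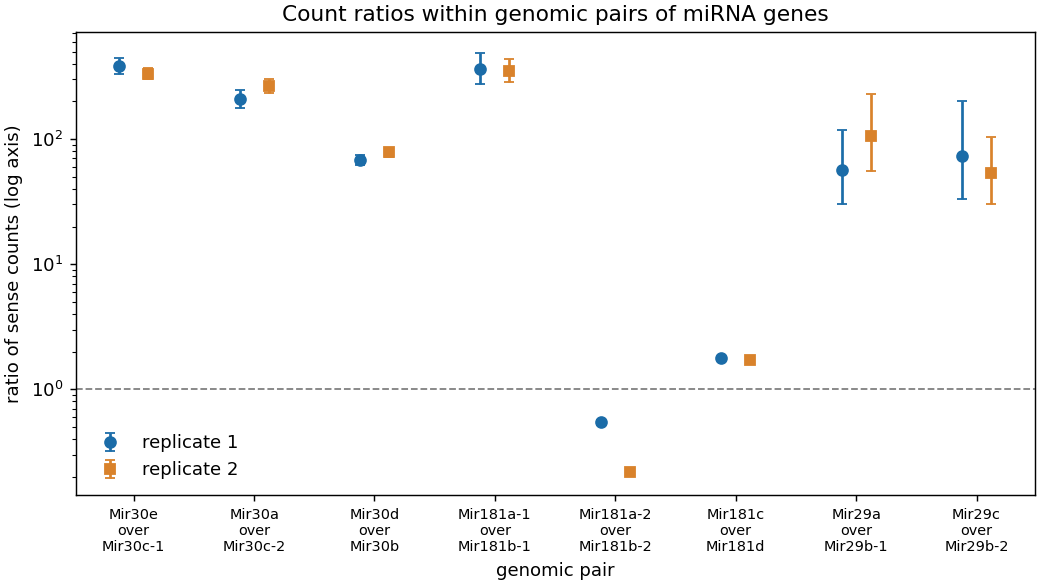
Ratio of sense counts within each genomic pair (log axis) in replicate 1 (circles) and replicate 2 (squares), with 95% counting intervals. The dashed line marks equal counts. The 3 Mir30 pairs lie between 68.2 and 381, and the Mir181a-2 pair lies below 1.

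Many genes with a shared arm had low counts in the comparison families, with exceptions. Across the Mir30, Mir181, Mir29 and Mir26 families, 10 genes gave a mature arm identical to that of another gene, and their mean levels ran from 1.92 to 5631 CPM with a median of 33.7 CPM. The 7 matched genes with no shared arm ran from 119 to 21699 CPM with a median of 10429 CPM. Mir30d at 9082 CPM and Mir30b at 124 CPM were not matched and belong to neither class, so within the Mir30 family only the Mir30c genes, and not the low Mir30b, are known here to share an arm. Mir26b, with no shared arm, had 16651 ± 1171 CPM, against 4.77 ± 0.143 CPM for Mir26a-1 and 23.3 ± 4.91 CPM for Mir26a-2. Mir181a-1 and Mir181b-2 had 5631 ± 17.0 and 1992 ± 177 CPM, and each shares its 5p arm with a copy. Counts add both arms, and only 1 of the 2 arms of each gene is shared. The part of either arm in these levels was not tested. The hairpins of Mir181a-1 and Mir181a-2 share a run of 28 bases, as long as that of the Mir30c genes. The range of levels across the Mir30 family was 492-fold, against 955-fold in the Mir181 family, 85.9-fold in the Mir29 family and 3493-fold in the Mir26 family.

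**Figure D4:**
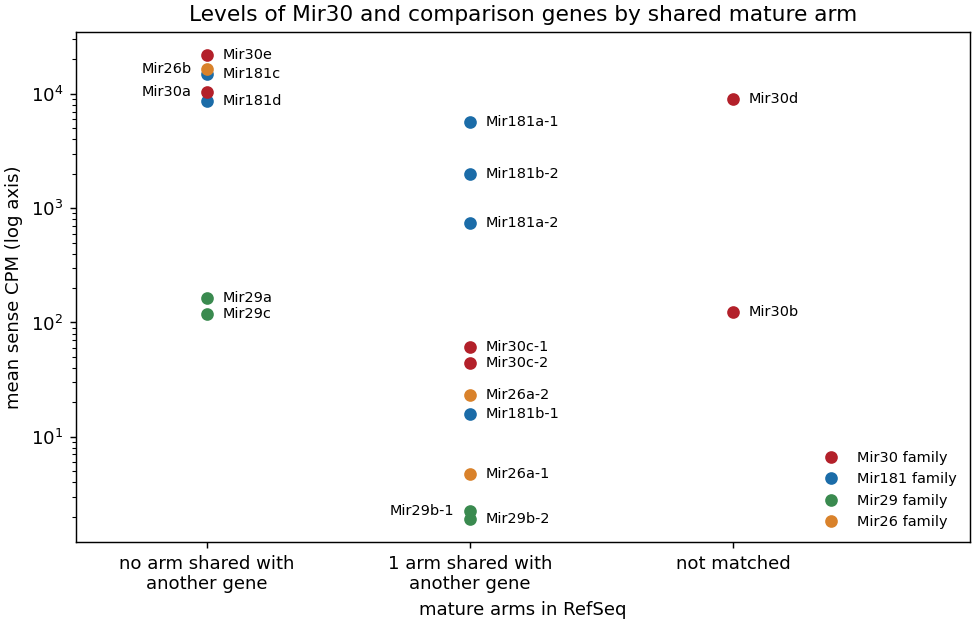
Mean sense CPM (log axis) of each gene of the Mir30, Mir181, Mir29 and Mir26 families, by whether a mature arm in RefSeq is identical to that of another gene. Mir30c-1 and Mir30c-2 lie at 61.3 and 44.1 CPM among the genes with a shared arm, below Mir181a-1 at 5631 CPM.

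Outside the symbols of the family, Mir384 carries the same 5p seed. It is studied in rat hippocampus for its part in synaptic plasticity. Mir384, on chromosome X at 105344282 to 105344369 (minus strand), lies in no annotated host gene. It had 1210 reads (353 CPM) in replicate 1 and 1975 reads (343 CPM) in replicate 2, a mean of 348 ± 6.70 CPM and rank 146. That was above Mir30b, Mir30c-1 and Mir30c-2 in both libraries and far below the other 3 members. Mir30f, annotated opposite to Mir30e, was not analysed here as a gene. Reads opposite to Mir30e numbered 0 in both libraries, which allows up to 0.875 CPM in replicate 1 and up to 0.522 CPM in replicate 2. Nor did any read lie opposite to the other 5 members.

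Summed by 5p seed over the 916 genes matched to a sequence, the Mir30 seed ranked 5 of 739 by mean CPM, with 32582 ± 3159 CPM from Mir30a, Mir30c-1, Mir30c-2, Mir30e and Mir384. This sum leaves out Mir30d and Mir30b, which were not matched. The Mir181 seed came next, with 32008 ± 1525 CPM, and the order of these seeds differed between the libraries.

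Between the pools the Mir30 genes differed by less than 1.5-fold, and not in 1 direction. After TMM scaling, log2 ratios of replicate 1 over replicate 2 (with 1 CPM added) were -0.16 for Mir30e (95% counting interval -0.17 to -0.15), -0.18 for Mir30a (-0.20 to -0.16) and -0.021 for Mir30d (-0.041 to -0.00024). They were 0.18 for Mir30b (0.0022 to 0.35), -0.35 for Mir30c-1 (-0.62 to -0.10) and 0.18 for Mir30c-2 (-0.12 to 0.47). Mir30e, Mir30a and Mir30c-1 were thus lower in replicate 1 beyond counting error under TMM, DESeq2 size factors and total counts. The interval of Mir30c-2 included equality under all 3 scalings, that of Mir30d with DESeq2 size factors (-0.035 to 0.0058) and that of Mir30b with total counts (-0.031 to 0.32).

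A fold of 1.1 was passed by 5 of the 6 members, against 58.6% of the 474 genes whose mean reached 1 CPM. Of these members, 2 were higher in replicate 1, as were 29.1% of the 474 genes, and 3 were higher in replicate 2, as were 29.5%. A fold of 1.2 was passed by Mir30c-1 alone, against 33.8% of genes, and a fold of 1.5 by 0 members, against 12.4%. The median absolute log2 ratio was 0.18 over the members and 0.16 over those genes. Among genes whose mean reached 100 CPM, 3 of 4 members passed a fold of 1.1, against 42.4% of 203 genes, whose median absolute log2 ratio was 0.12. Mir384 had a log2 ratio of 0.073. With 1 library per pool these differences have no replicate check.

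**Figure D5:**
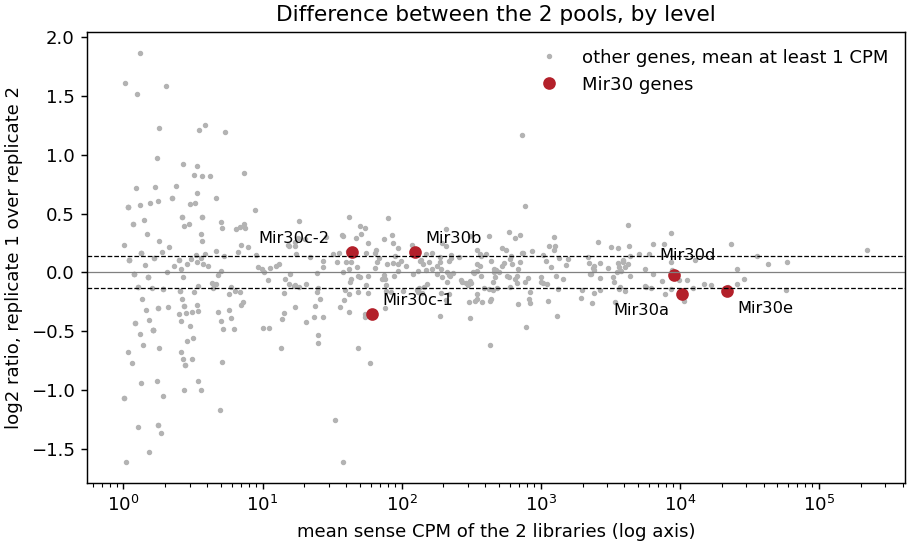
Log2 ratio of replicate 1 over replicate 2 against mean sense CPM (log axis) for the 474 genes whose mean reached 1 CPM, with the Mir30 genes in red. Dashed lines mark a fold of 1.1. Mir30c-1, at -0.35, is the member farthest from 0, and all 6 lie within the cloud of other genes.

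In level, the gene nearest to each member over the 2 libraries was Mir149 for Mir30e, Mir135b for Mir30a, Mir20a for Mir30d, Mir483 for Mir30b, Mir7j for Mir30c-1 and Mir224 for Mir30c-2. Distances in log2(CPM + 1) ran from 0.038 for Mir224 to 0.19 for Mir7j. With 2 libraries this is nearly only a likeness of level. In rank, Mir30e stood between Mir149 (22289 ± 1747 CPM) and Mir26b, and Mir30a between Mir135b (10648 ± 1458 CPM) and Mir342 (9836 ± 485 CPM). Mir30d came after Mir342 and before Mir20a (8763 ± 51.7 CPM). Mir30b stood between Mir483 (128 ± 9.61 CPM), a miRNA gene of the imprinted Igf2 locus, and Mir6540 (122 ± 2.66 CPM). Mir30c-1 stood between Mir1264 and Mir122, and Mir30c-2 between Mir18b and Mir34a. Most of these ranks were not resolved: Mir30a, Mir30b, Mir30c-1 and Mir30c-2 lay closer to both rank neighbours than their summed SDs, and Mir30e lay closer to Mir149. Mir30d was 754 CPM below Mir342 and 319 CPM above Mir20a, barely more than the summed SDs of 725 and 292 CPM.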

How the data were processed

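The authors deposited, per library, whole read counts per miRNA gene without regard to strand, on the sense strand and on the opposite strand, without normalization. Per the deposited readme text, reads were aligned to mm10 with GENCODE annotation M4. Aligner and counter, with version and settings: not given in the sources used here. Rows that name no gene (unmapped reads, reads with several places, reads outside genes, ambiguous reads) held 54.6% and 56.1% of reads in replicates 1 and 2 and were left out. Symbols and positions came from GENCODE M21, which matched 1894 of 1973 identifiers.

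Sense counts were scaled to CPM over all genes. Ratios between libraries used TMM in edgeR 4.0.16 and a pseudocount of 1 CPM, and DESeq2 1.42.0 size factors as an alternative. Intervals are exact, at 95%. Neighbours in level were said to differ when the gap of means exceeded their summed SDs in the same order in both libraries. Of the procedures, only the ratio between libraries was tested on simulated data, which held set changes and counting noise alone. Per the labels, the pools are 2 biological replicates; as a check for a duplicated library, their counts differed by more than sampling noise (a chi-square of 27185 with 468 degrees of freedom). SDs and intervals measure only the spread of these pools and reads. Named genes were the members, Mir384, the comparison families, the nearest gene in level and both rank neighbours of each member, and fixed markers. Members and lists were chosen with earlier results of these data known.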

Additional observations from a re-analysis of the deposited data

How the results depend on the processing

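Of 69 alternative values, 23 could not move by more than the replicate SD by construction and say nothing of stability: 20 that left out 1 of 2 replicates and 3 pair ratios in the unstranded column. Of the other 46, 33 moved by no more than the replicate SD or the counting interval, or kept their count or rank. These include settings with little room to move. Levels and share in the unstranded column kept the members' counts and moved only with the library total. Pseudocounts of 0.1 and 10 CPM are small beside Mir30e, Mir30a and Mir30d. Without the most counted gene, Mir99a, in the library total, levels were 27920 CPM for Mir30e, 13417 for Mir30a, 11694 for Mir30d, 160 for Mir30b, 78.8 for Mir30c-1 and 56.9 for Mir30c-2, and the family share was 5.33%, by construction of the smaller total. With total counts in place of TMM, log2 ratios of replicate 1 over replicate 2 were -0.19 for Mir30e, -0.21 for Mir30a and -0.054 for Mir30d. Of the 6 members, 1 passed a fold of 1.2 and 0 passed 1.5, and with a mean of at least 100 CPM 3 of 4 passed 1.1. The Mir30 rank was 5 by seed and by family number. Ratios between the libraries cannot be recomputed without a replicate. No paired analysis was possible because there is 1 group. Depth limits the Mir30c genes most, at 159 to 400 reads a library, and reads with several mapping places cannot be assigned.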
